A study of Mus musculus with 2 samples.

Results

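The kinetochore, checkpoint and spindle genes examined here are 39 of the 49492 genes in the count table, chosen by name for their roles in chromosome segregation and sorted by role into 4 groups. The groups cover the inner centromere (13 genes), the outer kinetochore and its fibrous corona (9), the spindle checkpoint with the protectors of cohesion (8), and the spindle kinases with the chromosomal passenger complex and spindle proteins (9). All 39 genes were found in the table, and all 39 had the 10 reads, summed over both libraries, that were required for testing.

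To examine how macrophages act on mammary basal cells, the study sorted basal cells (lin-CD24+CD29hi) by FACS from mammary glands of adult female wild-type mice and grew them in a 3D matrix. The ctrl library came from cells grown alone with no treatment, and the M2 library from cells that shared the well for 11 to 14 days with M2-like macrophages. No culture time is recorded for the ctrl library, and an effect of culture time was not tested. The macrophages had been derived from bone marrow, polarised with IL-4 and IL-13, and placed in a porous insert above the matrix, so that they did not touch the basal cells. RNA came from the whole colonies and organoids, which can hold luminal as well as basal cells. Each group holds 1 library, and the labels do not say how many mice or wells went into it. The word microarray in the series title and design text goes against the values, which are counts of sequencing reads. With 1 library in each group there was no replicate check of any difference, so every test and interval given here compares those libraries and covers counting error only, not the spread between cultures. Bulk RNA cannot tell a larger share of dividing cells apart from more RNA of these genes in each cell.

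The kinetochore is the protein structure that joins a chromosome to spindle microtubules in mitosis. An inner layer, the constitutive centromere-associated network (CCAN), sits on centromeric chromatin through most of the cell cycle, while the outer layer that grips microtubules is built on it as cells enter division. Until every kinetochore is attached, the spindle checkpoint holds back the anaphase-promoting complex. Many of these genes are transcribed chiefly in late S, G2 and M phase, and many such promoters carry a cell cycle homology region (CHR), which binds the MuvB complexes, often with CCAAT boxes bound by NF-Y upstream.

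In the M2 library, 19 of the 39 genes were called higher and 0 were called lower. A gene was called at a Benjamini-Hochberg adjusted p under 0.05 in the exact binomial test, together with a difference of 2-fold or more. The background of these calls was 8.16% of the 19233 genes tested for higher and 6.55% for lower. The log2 difference, M2 minus ctrl, was above 0 for 38 of the 39 genes, against 49.7% of all genes tested. Its median was 0.90 over the 39 genes and -0.0032 over all genes tested, whose quartiles were -0.32 and 0.35. For 35 of the 39 genes the 95% Clopper-Pearson interval of the difference lay wholly above 0, against a background of 28.8%. It included 0 for Cenpn, Cenpw and Dsn1, and lay below 0 for Cenpp. At any fold, 33 of the 39 genes were higher with an adjusted p under 0.05 in the exact binomial test (background 27.0%). Cenpm and Cenpq, whose intervals began just above 0, did not reach it. The stricter rule that the whole interval lie beyond 2-fold was met by 12 genes (background 4.88%). Summed over the 39 genes, the level was 592 CPM (counts per 1000000 reads in genes) in ctrl and 1088 CPM in M2, a 1.91-fold difference after scaling by TMM, which the CPM values do not hold.

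The 4 roles did not contribute alike to these calls. Of the spindle kinases and spindle proteins, 8 of 9 were called higher, with a median log2 difference of 1.11. In the checkpoint and cohesion protection group, 5 of 8 were called, with a median of 1.18. The outer kinetochore group had 4 of 9 called and a median of 0.90. The inner centromere group had 2 of 13 called and a median of 0.54. These are counts over named genes of a single pair of libraries, and no test between the roles was made. In edgeR's exactTest, where the biological coefficient of variation between cultures has to be assumed, 19 of the 39 genes were called higher with a value of 0.1 (background 7.31%), 12 with 0.2 (background 5.01%) and 0 with 0.4 (background 0.910%). The values nearest to the 2-fold threshold were 0.78 (Spc24), 0.78 (Mis12) and 0.90 (Nsl1) just under it, and 1.01 (Incenp), 1.02 (Spag5) and 1.09 (Plk1) just over it.

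**Figure D1:**
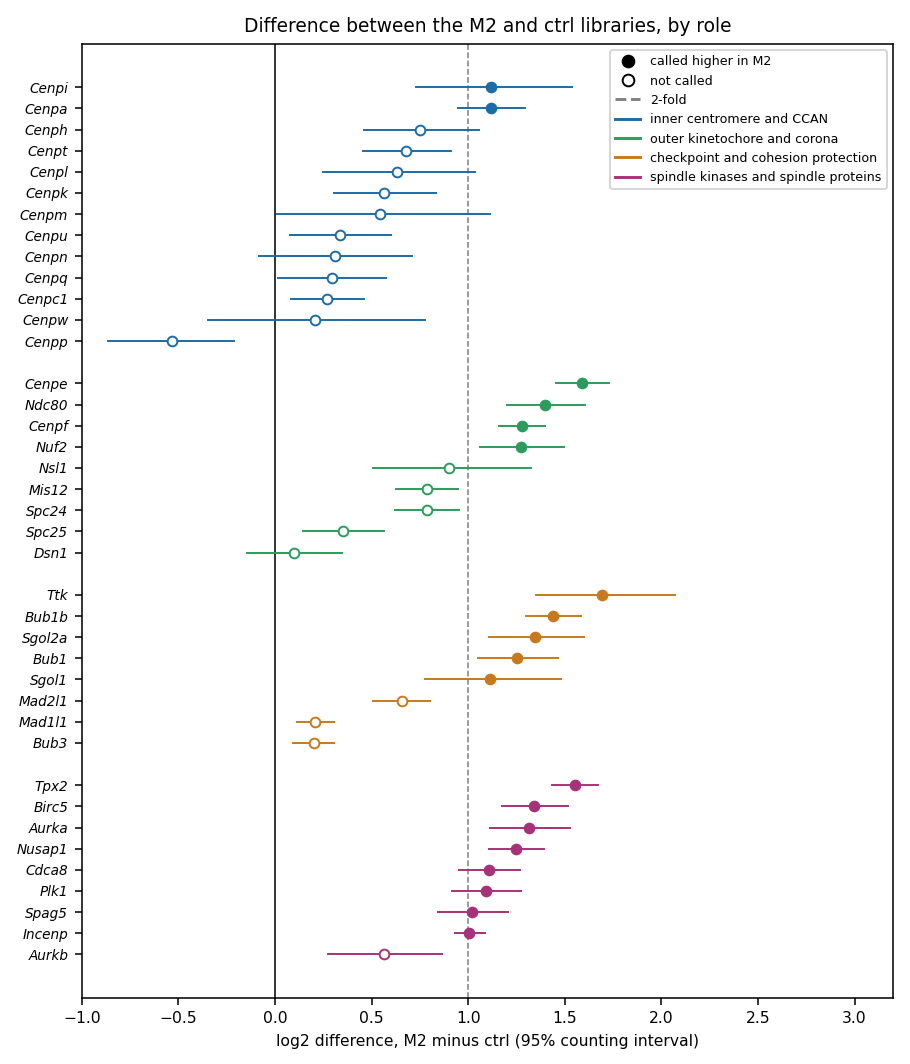
Log2 difference between the M2 and ctrl libraries for each of the 39 genes, grouped by role, with horizontal lines for the 95% counting interval and the dashed line at 2-fold. Filled points are the 19 genes called higher. Nearly all of the spindle group lies at or beyond the dashed line, most of the inner centromere group lies between 0 and the line, and Cenpp alone lies left of 0.

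The inner centromere group had the lowest median of the 4 groups, and most of its genes differed by less than 2-fold. Cenpa, the histone H3 variant that marks centromeric chromatin (chromosome 5, 30666777 to 30674830, GRCm38), had 402 and 916 reads in ctrl and M2. Its log2 difference was 1.12 (95% interval 0.95 to 1.29, adjusted p = 3.12e-40, exact binomial test). Cenpi (chromosome X, 134308084 to 134362639), a CCAN subunit that acts with the proteins of Cenph, Cenpk and Cenpm, had only 75 and 172 reads, a log2 difference of 1.12 with a wider interval (0.73 to 1.54). Of its partners, Cenph had 148 and 262 reads (log2 difference 0.75, 0.46 to 1.06), Cenpk 196 and 305 (0.57, 0.31 to 0.84) and Cenpm 48 and 74 (0.54, 0.01 to 1.11). None of these partners was called, and the differences between them and Cenpi were not tested.

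Cenpc1, which encodes the scaffold that bridges centromeric nucleosomes and the outer kinetochore, had 411 and 520 reads, a log2 difference of 0.27 (0.08 to 0.46). Its interval and that of Cenpa do not overlap. Cenpt, which encodes the second bridge to the Ndc80 complex, had 259 and 436 reads (log2 difference 0.68, 0.46 to 0.91), whereas Cenpw, its histone-fold partner, had 51 and 62 reads and an interval from -0.35 to 0.78 around 0.21. Cenpl and Cenpn, the pair that contacts Cenpa nucleosomes and Cenpc1, had log2 differences of 0.63 (90 and 147 reads) and 0.31 (96 and 125 reads). For Cenpn and Cenpw the depth did not show a difference, and the intervals do not exclude one of more than 1.5-fold.

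Of the CENP-O type subcomplex, the 3 genes among the 39 were divided. Its genes outside the 39, Cenpo and Itgb3bp, had log2 differences of 0.10 (404 and 454 reads) and 1.30 (233 and 603 reads). Cenpo is named after its values were seen. Cenpq had 192 and 247 reads and Cenpu 217 and 288 reads, with log2 differences of 0.29 and 0.34, neither near 2-fold. Cenpp (chromosome 13, 49464027 to 49652746) was the 1 gene of the 39 with the lower value in M2. Its reads numbered 188 in ctrl but 136 in M2, and its log2 difference was -0.53 (-0.87 to -0.21, adjusted p = 0.00251, exact binomial test), which did not reach 2-fold. Its interval does not overlap those of Cenpq (0.02 to 0.57) and Cenpu (0.08 to 0.60), although the proteins form a single subcomplex. The table's gene models of Cenpp, Cenpk, Cenpm and Incenp differ in their ends from those of GENCODE release M21, and the other 35 match.

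In the outer kinetochore, genes of the corona and of the microtubule-binding end of the Ndc80 complex were called, and genes of the end that faces the chromosome were not. Cenpe, a kinesin of the corona that moves chromosomes to the spindle equator (chromosome 3, 135212537 to 135273611), had 573 and 1812 reads. Its log2 difference was 1.59 (1.46 to 1.73, adjusted p = 1.03e-134, exact binomial test). Cenpf, a large corona protein also known as mitosin (chromosome 1, 189640606 to 189688086), had 815 and 2073 reads, a log2 difference of 1.28 (1.16 to 1.40).

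The Ndc80 complex is built of a pair of long dimers. Ndc80 and Nuf2 hold the microtubule, and Spc24 and Spc25 dock on the inner proteins. Ndc80 (chromosome 17, 71496100 to 71526857) had 281 and 779 reads, a log2 difference of 1.40 (1.20 to 1.60). Nuf2 (chromosome 1, 169497934 to 169531464) had 249 and 633 reads, a log2 difference of 1.27 (1.06 to 1.49). Spc24, with 471 and 852 reads, differed by 0.78 (0.62 to 0.95) and Spc25, with 331 and 444 reads, by 0.35 (0.15 to 0.56). The intervals of Ndc80 and Nuf2 overlap each other and lie wholly above those of Spc24 and Spc25, which do not overlap each other either. Genes whose proteins assemble into 1 complex therefore differed from each other beyond counting error in these libraries. The same held in the Mis12 complex, the docking platform, where Mis12 (482 and 872 reads) differed by 0.78 (0.62 to 0.95) and Dsn1 (257 and 289 reads) by 0.10 (-0.15 to 0.35), with Nsl1 (77 and 152 reads) at 0.90 (0.51 to 1.33).

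In the checkpoint group, Ttk, Bub1b, Bub1 and both shugoshin genes were called, and Bub3, Mad1l1 and Mad2l1 were not. Ttk, which encodes the kinase Mps1 that starts checkpoint signalling (chromosome 9, 83834689 to 83872389), had 86 and 294 reads. Its log2 difference of 1.69 (1.35 to 2.07, adjusted p = 1.04e-24, exact binomial test) was the highest value of the 39 genes, though its interval overlaps those of Cenpe, Tpx2, Bub1b and others. Bub1b, the gene of BubR1, which blocks the anaphase-promoting complex as part of the checkpoint complex (chromosome 2, 118598211 to 118641591), had 531 and 1512 reads, a log2 difference of 1.44 (1.30 to 1.59). Bub1, a kinase that marks centromeric chromatin for the shugoshins (chromosome 2, 127801122 to 127831865), had 265 and 664 reads, a log2 difference of 1.25 (1.05 to 1.47).

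The shugoshin genes, whose proteins shield centromeric cohesin from early removal, were both called. Sgol1 had 98 and 224 reads (log2 difference 1.12, 0.77 to 1.48) and Sgol2a had 191 and 511 reads (1.35, 1.11 to 1.60). Exons of Sgol2a share 2455 bases, 35.0% of its length, with Kctd18 on the opposite strand. Kctd18 had 961 and 1193 reads, a log2 difference of 0.24, and since the use of strand in counting is not stated, reads of the shared bases could belong to either gene.

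Bub3, which carries Bub1 and BubR1 to kinetochores, had 1303 and 1570 reads, a log2 difference of 0.20 (0.09 to 0.31). Mad1l1, the gene of the Mad1 scaffold, had 1552 and 1882 reads, a log2 difference of 0.21 (0.11 to 0.31). Both passed the exact binomial test (adjusted p = 0.000600 and 7.60e-05) at a difference far from 2-fold. Mad2l1, the gene of the Mad2 protein that binds Cdc20, lay between these and the called genes with 608 and 1005 reads, a log2 difference of 0.65 (0.51 to 0.80). The interval of Bub3 lies wholly below those of its partners Bub1 and Bub1b.

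The spindle kinases and spindle proteins were the group in which the most members were called. Tpx2, which activates Aurora A and nucleates microtubules around chromosomes (chromosome 2, 152847964 to 152895321), had 784 and 2413 reads. Its log2 difference was 1.55 (1.44 to 1.67, adjusted p = 7.66e-173, exact binomial test). Aurka, the Aurora A kinase of spindle poles (chromosome 2, 172356190 to 172370535), had 273 and 714 reads, a log2 difference of 1.31 (1.11 to 1.52). Plk1, the polo-like kinase of mitotic entry and spindle building (chromosome 7, 122159439 to 122169873), had 373 and 836 reads, a log2 difference of 1.09 (0.92 to 1.28). Both microtubule binders of the group were called as well. Nusap1, which bundles spindle microtubules, had 587 and 1464 reads (1.25, 1.11 to 1.39), and Spag5, also called astrin, which steadies attached kinetochores, had 372 and 793 reads (1.02, 0.84 to 1.20).

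The chromosomal passenger complex corrects faulty attachments through the kinase Aurora B, held by the proteins of Incenp, Birc5 (survivin) and Cdca8 (borealin). Birc5 (chromosome 11, 117849251 to 117855743) had 382 and 1017 reads, a log2 difference of 1.34 (1.17 to 1.52). Cdca8 (chromosome 4, 124918465 to 124939311) had 481 and 1090 reads, a log2 difference of 1.11 (0.95 to 1.27). Incenp (chromosome 19, 9872297 to 9899533) had 1975 and 4164 reads, the most of the 39 genes, and a log2 difference of 1.01 (0.93 to 1.08). The kinase gene Aurkb itself (chromosome 11, 69045647 to 69051664) had 157 and 244 reads, a log2 difference of 0.56 (0.27 to 0.87), and was the 1 gene of the group that was not called. Its interval does not overlap those of its 3 partners. Incenp and Spag5 lay so close to the threshold that scaling by total reads alone, in place of TMM, took their differences to 0.95 and 0.96 and ended the call.

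Because gene lengths differ, levels of different genes were compared only as RPKM, which is CPM divided by the gene's listed length in kilobases. Incenp had the highest level in both libraries, 22.8 RPKM in ctrl and 44.0 RPKM in M2, and Cenpw the lowest, 0.450 and 0.501 RPKM. In ctrl the next highest levels were those of Mad1l1 (15.8 RPKM), Bub3 (6.91), Spc24 (6.80), Cenpp (6.34), Plk1 (6.30) and Tpx2 (6.23), of which all but Mad1l1 lie close together. In M2, Tpx2 was 2nd at 17.5 RPKM and Mad1l1 was 3rd at 17.5 RPKM, while Bub3 was 12th at 7.62 RPKM and Cenpp was 22nd at 4.20 RPKM. Across the 39 genes, the Spearman correlation of the levels in the libraries was 0.885. Genes are not independent replicates and no test was made of this value. Ttk and Cenpi, which were called, were among the 5 lowest levels in ctrl (0.650 and 0.491 RPKM), and Tpx2 and Plk1, also called, among the 7 highest.

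**Figure D2:**
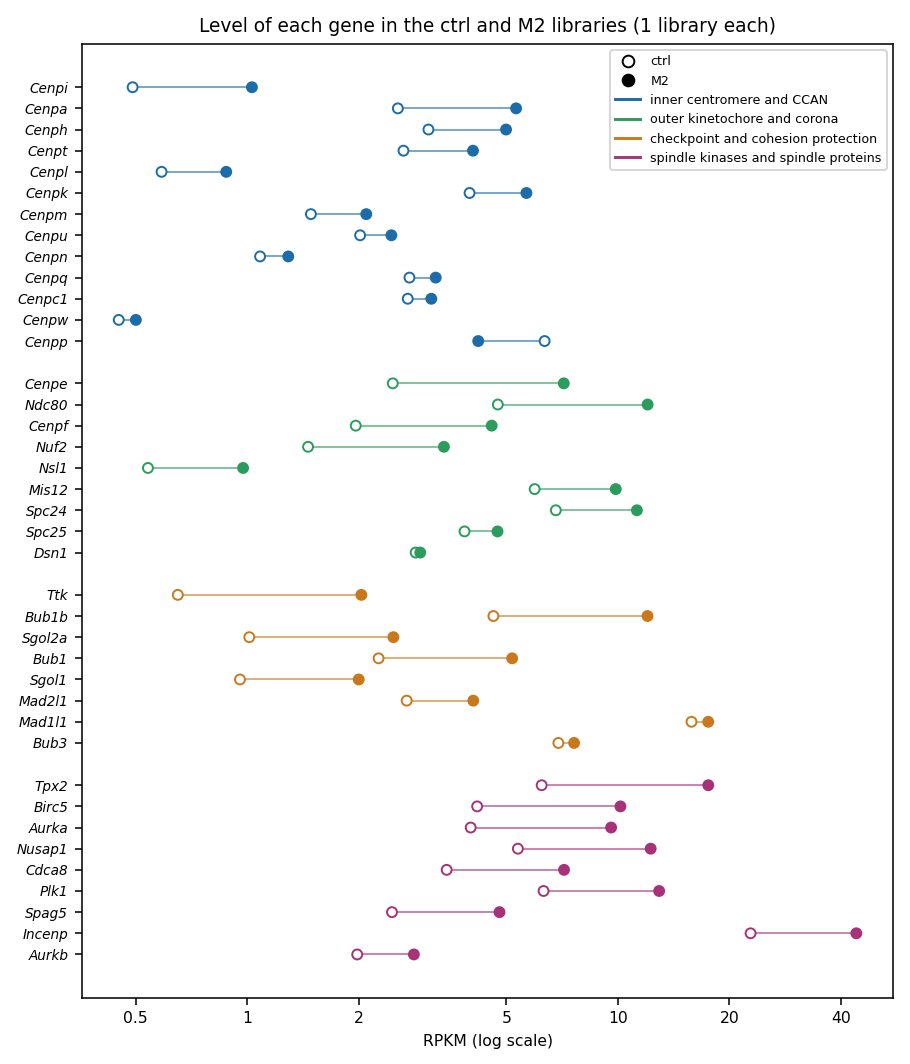
Level of each gene in the ctrl library (open circles) and the M2 library (filled circles) as RPKM on a log axis, grouped by role, 1 library each. The levels run from 0.450 RPKM for Cenpw in ctrl to 44.0 RPKM for Incenp in M2, and Cenpp is the 1 gene whose filled circle lies left of the open one.

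The promoters of these genes were then read for the CHR core, TTTGAA or TTCGAA on either strand, and for CCAAT on either strand, in RefSeq windows of 300 bases (250 before and 50 after the start of transcription, GRCm38.p6). The windows matched 34 of the 39 genes. No window was matched to Spc24, Nsl1, Aurkb, Incenp and Tpx2. In many promoters the CHR core lay just after the start, and the stretch of 50 bases after the start was therefore singled out. That choice was made after the positions had been seen. Cores that lay only before the start, in Bub3, Cenpl, Cenpm, Cenpn and Cenpw, are not shown, and none of these genes was called. From the 12 genes with a core in the 50 bases after the start, 11 windows are shown. They were picked with the calls known, because these genes were nearly all called. Each is 30 bases on the strand of the gene, 5′ to 3′, with the core in capitals, and TTCAAA is TTTGAA read on the other strand. Among the checkpoint genes they were those of Ttk, Bub1b, Bub1 and Sgol1, with the core starting at base 8, 41, 15 and 28 after the start, where the first transcribed base is 1.
Ttk, chr9:83834684-83834713, plus strand: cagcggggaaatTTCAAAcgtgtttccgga
Bub1b, chr2:118598231-118598260, plus strand: ctgcgtcaagagacgttaaaTTTGAAactt
Bub1, chr2:127831828-127831857, minus strand: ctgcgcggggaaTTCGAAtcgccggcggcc
Sgol1, chr17:53689271-53689300, minus strand: gtaacgcagaatTTCGAAtgtggcggcggt

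Among the spindle kinases and spindle proteins the windows shown are those of Aurka, Plk1 and Spag5, with the core starting at base 33, 31 and 4.
Aurka, chr2:172370521-172370550, minus strand: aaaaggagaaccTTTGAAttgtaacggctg
Plk1, chr7:122159453-122159482, plus strand: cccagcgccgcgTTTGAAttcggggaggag
Spag5, chr11:78301582-78301611, plus strand: gtgcgtattgggTTCAAAtagaggcggcgg

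In the kinetochore itself they were Cenpa, Cenpf, Ndc80 and Spc25, with the core starting at base 17, 3, 30 and 25, and Spc25 was the 1 gene of the 12 that was not called.
Cenpa, chr5:30666890-30666919, plus strand: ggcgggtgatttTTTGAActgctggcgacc
Cenpf, chr1:189688067-189688096, minus strand: ggcggcgggcagTTTGAAtcgctcgtgctg
Ndc80, chr17:71526811-71526840, minus strand: gaaactttaaaaTTCAAAccgccttgggtt
Spc25, chr2:69206172-69206201, minus strand: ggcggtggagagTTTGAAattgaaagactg

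A CHR core in the 50 bases after the start was found in 11 of the 17 called genes with a window (64.7%) and in 1 of the 17 that were not called (5.88%). Over all 27025 genes with a window it was found in 2.87%, and over the 11817 of them that were tested in 2.12%. Of the 250 tested genes that held it, 56 were called higher in M2 (22.4%), against 919 of the 11567 that did not (7.95%). With the kinetochore, checkpoint and spindle genes left out, these shares were 46 of 239 (19.2%) and 914 of 11546 (7.92%). For a core anywhere in the 300 bases, a stretch not chosen on the positions, they were 195 of 1937 (10.1%) and 765 of 9848 (7.77%). No test was made of these shares. By role, the 50 bases held a core in 4 of 6 windows of the spindle group and 4 of 8 of the checkpoint group. They held one in 3 of 7 of the outer kinetochore and 1 of 13 of the inner centromere. The full 300 bases held one in 4 of 6, 5 of 8, 3 of 7 and 5 of 13, in the same order. Anywhere in the 300 bases, a core was found in 11 of 17 called genes and 6 of 17 others, and in 16.5% of tested genes. The called genes Cenpe, Nuf2, Sgol2a, Birc5, Nusap1 and Cenpi had no core in the windows read, and their log2 differences, 1.12 to 1.59, lay within the span of the called genes that had one. A match is a run of letters and not a measured site. The RefSeq start can lie far from that of the table's gene model, by 2394 bases for Cdca8 and 1270 for Cenpt. Cdca8 is counted here with a core. Sgol2a and Mad1l1 also have a RefSeq start further off, 146634 bases away for Mad1l1. Smaller offsets, RefSeq start minus gene model start along the gene, were 109 bases for Cenpa, 62 for Spag5, -35 for Aurka and 10 for Cenpn. Counted from the gene model's start, the cores of Cdca8, Cenpa, Spag5 and Aurka would start outside the 50 bases, and that of Cenpn inside. The shares of called and other genes with a core therefore depend on the start used.

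At least 1 CCAAT box upstream of the start was found in 11 of 17 called genes (64.7%) and 10 of 17 others (58.8%), against 39.7% of all tested genes with a window. Of the 4687 tested genes with such a box, 371 were called higher in M2 (7.92%), against 604 of the 7130 without one (8.47%). The 100 bases before the start are shown for Bub1 and Aurka, which were called and have 2 boxes each in this stretch, and for Cenpq, which was not called and has 2, with CCAAT or its reverse ATTGG in capitals.
Bub1, chr2:127831860-127831959, minus strand: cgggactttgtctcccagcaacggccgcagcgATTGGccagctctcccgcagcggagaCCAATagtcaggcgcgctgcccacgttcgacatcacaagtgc
Aurka, chr2:172370571-172370670, minus strand: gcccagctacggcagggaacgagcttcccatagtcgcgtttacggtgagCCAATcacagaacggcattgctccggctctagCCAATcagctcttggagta
Cenpq, chr17:40934575-40934674, minus strand: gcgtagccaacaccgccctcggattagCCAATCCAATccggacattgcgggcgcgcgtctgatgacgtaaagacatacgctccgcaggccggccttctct

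Both features together, an upstream CCAAT box and a CHR core after the start, were found in 9 of 17 called genes and 1 of 17 others (Spc25). Among the 11817 tested genes with a window, 109 held both (0.922%), and 31 of these were called higher in M2 (28.4%), against 8.06% of the rest. Without the kinetochore, checkpoint and spindle genes, 22 of 99 were called higher (22.2%), against 8.03%. This count rests on the same RefSeq starts and on the same stretch chosen after the positions had been seen.

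**Figure D3:**
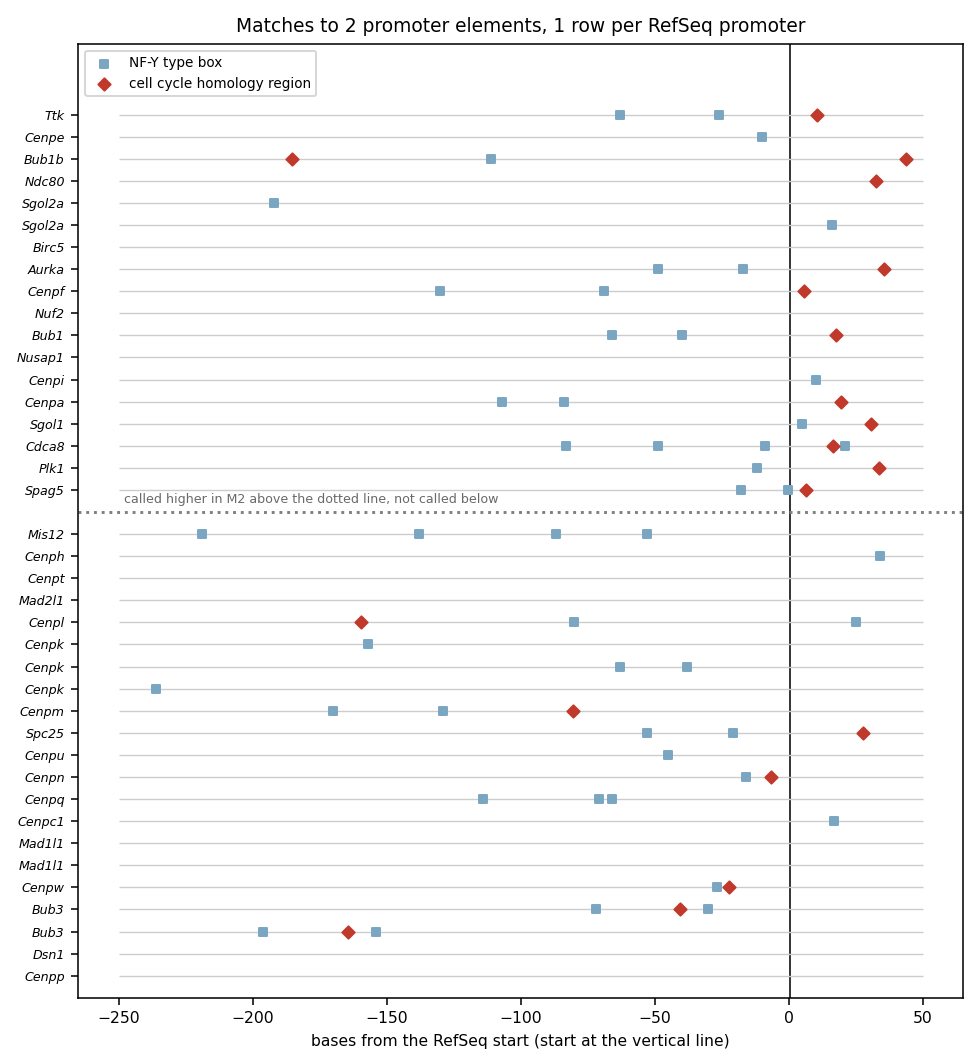
Positions of CHR cores (red diamonds) and CCAAT boxes (blue squares, NF-Y type) in the RefSeq promoter windows of 34 genes, in bases from the start, with called genes above the dotted line and the others below, in order of their log2 difference. Genes with several RefSeq starts have a line for each. The diamonds right of the start belong to 11 called genes and to Spc25.

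Other genes of the same pathways were taken from 8 lists written by function. Of 24 further kinetochore and centromere genes, 4 were called higher, among them Itgb3bp, Ska1 and Knl1, and 0 lower, with a median log2 difference of 0.39. Hjurp, the chaperone that loads Cenpa, had 3939 and 4805 reads, a log2 difference of 0.22, and Cenpb, which binds centromeric repeat DNA, 8515 and 8851 reads, a log2 difference of -0.01. Bod1l (4128 and 4844 reads) and Bod1 (1132 and 1060 reads) had values of 0.16 and -0.16. Itgb3bp (233 and 603 reads, 1.30), Ska1 (119 and 260 reads, 1.05) and Knl1 (177 and 380 reads, 1.03) are named after their values were seen.

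The target of the checkpoint, the anaphase-promoting complex, had 3 of 21 genes called higher, 0 lower, and a median of 0.19. The 3 were Fbxo5, the gene of the inhibitor Emi1 (54 and 149 reads, log2 difference 1.38), and, named after their values were seen, the activator Cdc20 (217 and 535 reads, 1.23) and the ubiquitin-conjugating enzyme Ube2c (372 and 942 reads, 1.27). The core subunits Anapc1 (3060 and 2593 reads, -0.31), Anapc2 (3219 and 2857 reads, -0.24) and Anapc5 (4347 and 5017 reads, 0.14) were not called. Cohesin and its regulators, the substrate that the shugoshins protect, had 1 of 16 called higher (Gsg2, the haspin kinase that recruits the passenger complex, 24 and 81 reads, 1.64, also named after its values were seen), 0 lower, and a median of 0.26. Smc1a, Rad21 and Smc3 had log2 differences of 0.39, 0.34 and 0.33, Cdca5 (sororin) 0.87 and the loader subunit Mau2 -0.38.

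Among 30 genes of spindle assembly and cytokinesis, 8 were called higher and 0 lower, with a median of 0.48. Hmmr, a Tpx2 partner, had 362 and 1168 reads (log2 difference 1.62) and Prc1, the midzone bundler, 1479 and 3424 reads (1.14). Numa1, which focuses spindle poles, had the most reads of that list, 16053 and 14828 (-0.18). The microtubule polymerase gene Ckap5 had 2330 and 3525 reads (0.53), and Gpsm2, which orients the spindle, had 1658 and 1387 reads (-0.33). The 12 proliferation markers and mitotic cyclins had 7 called higher, 0 lower, and a median of 1.16. Among the 8 lists, this median was the nearest to those of the spindle group (1.11) and the checkpoint group (1.18). Mki67 (2656 and 6713 reads) and Top2a (2389 and 6118 reads) had log2 differences of 1.27 and 1.29, Ccnb2 (237 and 721 reads) 1.53, Ccna2 (834 and 1554 reads) 0.83, and Wee1, which restrains mitotic entry, -0.30 (557 and 475 reads).

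Genes of DNA replication and of centriole duplication serve earlier steps of the cell cycle. Of 32 origin licensing and replication genes, 1 was called higher (Mcm10, 116 and 272 reads, log2 difference 1.15), 0 lower, and the median was 0.45. By the exact binomial test alone, at an adjusted p under 0.05 and any fold, 26 of the 32 were higher in M2 and 0 lower. Rrm1, Mcm7 and Pcna had values of 0.37, 0.35 and 0.24, and Gins2 -0.0061. Of 12 centriole duplication genes, 0 were called at 2-fold, while 8 were higher and 1 lower by the same test at any fold, with a median of 0.24. Stil had 0.92 and the abundant Pcnt, Cep250 and Cdk5rap2 had 0.21, 0.20 and -0.20. The 14 genes of the MuvB, B-Myb, FoxM1 and DREAM regulators, which act on CHR promoters, had 0 called at 2-fold, 5 higher and 4 lower at any fold, and a median of 0.03. Mybl2 (150 and 270 reads) had 0.77, Tfdp1 0.33, Dyrk1a 0.02, Rbbp4 -0.12 and Lin52 (162 and 111 reads) -0.61. The gene of FoxM1 itself, Foxm1, was picked with its difference known. It came next below Mybl2 at 0.66 (0.45 to 0.88), from 295 reads in ctrl and 491 in M2. The median of this list therefore does not describe each regulator. At any fold, an adjusted p under 0.05 was reached with a higher value by 27.0% and with a lower value by 26.1% of all genes tested.

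**Figure D4:**
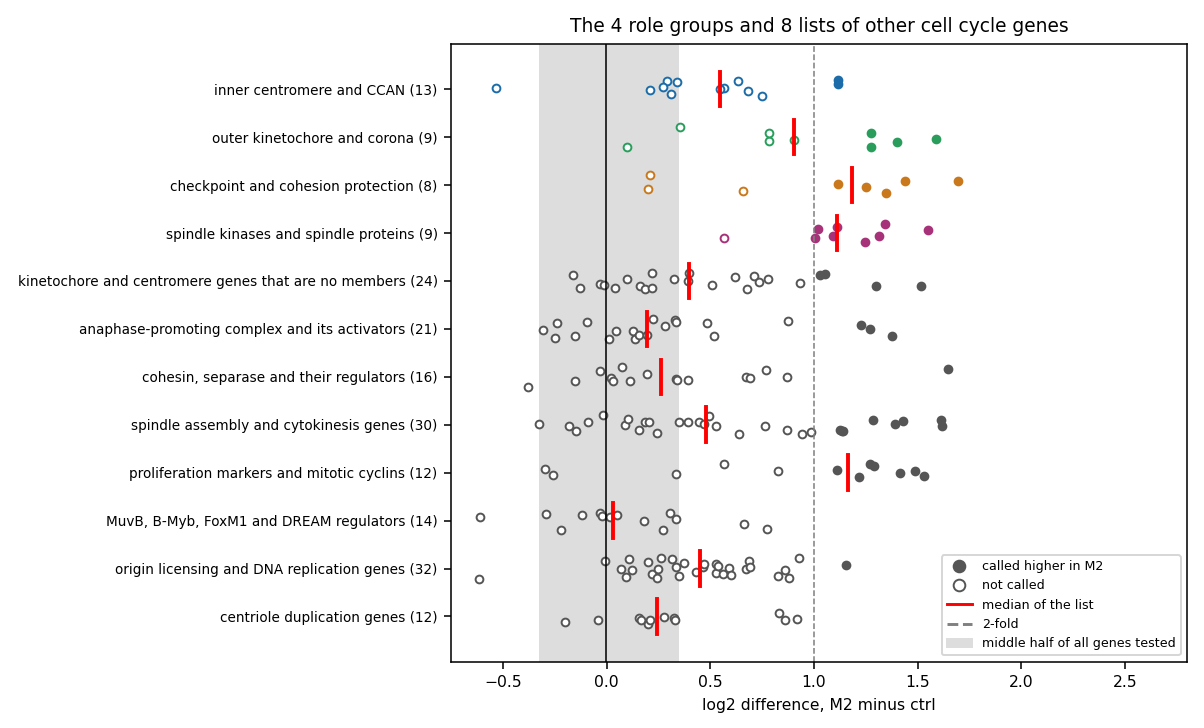
Log2 difference between the M2 and ctrl libraries for the genes of the 4 role groups and of the 8 lists of other cell cycle genes, 1 point a gene, with the number of genes in brackets and the median of each list as a red bar. Filled points were called higher, the grey band runs from the lower to the upper quartile of all genes tested (-0.32 to 0.35), and the red bars run from 0.03 for the MuvB, B-Myb, FoxM1 and DREAM regulators to 1.18 for the checkpoint group.

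Reads in genes totalled 26912610 for ctrl and 29413844 for M2, and mitochondrial genes took 4.83% and 4.11% of them. The 3 reads that a count of 0 allows correspond to 0.111 and 0.102 CPM, and the 39 genes had at least 48 reads in each library. Markers of other cell types were read beside these results. Basal markers (8 genes) summed to 7941 CPM in ctrl and 7552 CPM in M2, a log2 difference of -0.01, and luminal markers (8 genes) to 3456 and 3047 CPM, -0.12. Single markers, named after their values were seen, moved both ways within these sums. Among the basal markers, Krt5, Trp63 and Acta2 had log2 differences of 0.50, 0.15 and 0.04. Myh11, Cnn1, Krt14, Mylk and Oxtr had -0.06, -0.28, -0.32, -0.79 and -2.18. Among the luminal ones, Krt8 and Epcam had 0.21 and 0.06. Krt18, Gata3, Krt19, Elf5, Prlr and Esr1 had -0.05, -0.11, -0.78, -1.11, -1.59 and -1.94. The 19 macrophage markers summed to 66.5 and 83.0 CPM, of which Arg1 gave most (1507 and 2090 reads), and without it to 10.6 and 11.9 CPM. Most of the reads left were those of Cd68 (170 and 165 reads, log2 difference -0.11) and Csf1r (94 and 92 reads, -0.10). No read (0) of Ptprc, Adgre1, Tyrobp, Fcer1g, Chil3 or C1qb was counted in either library, and Lyz2 had 3 and 1 reads. Aif1 (3 and 40 reads) and Cd163 (2 and 30 reads), named after their values were seen, were higher in M2. The 8 fibroblast markers summed to 346 CPM in ctrl and 140 CPM in M2, a log2 difference of -1.25, though Dcn (51 and 157 reads, 1.53) and Pdgfra (607 and 822 reads, 0.37) were higher in M2. The 5 endothelial markers summed to 2.23 and 2.75 CPM, with Pecam1 at 33 and 76 reads, Cdh5 at 11 and 2 and Kdr at 11 and 0. The part of these differences in cell makeup in the values of the kinetochore and spindle genes was not tested.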

How the data were processed

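The table that the authors deposited gives unnormalized read counts of 49492 genes in 2 libraries. The genome build was GRCm38 (mm10) per the submitters' processing notes. The aligner, counting tool, annotation and use of strand are not given in the sources used here. The labels name a column kit for RNA extraction and the study's methods a lysis reagent. For 26 genes the name had become a date in a spreadsheet, and they were tested but not named. Sgol1 and Sgol2a were matched to RefSeq through synonyms. There were 0 unused sample columns.

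Counts were scaled by TMM factors (1.02 for ctrl, 0.980 for M2; edgeR 4.0.16, R 4.3.3). For each gene with at least 10 reads summed, its reads were compared by a two-sided exact binomial test against the effective library sizes (scipy 1.17.1, Python 3.11.15), with Benjamini-Hochberg adjustment over 19233 genes. Fold differences used a pseudocount of 1 read. The thresholds were an adjusted p of 0.05 and 2-fold, after the study's methods. Intervals are 95% Clopper-Pearson. The functions were tested on simulated data. Alternatives changed the scaling, filter, pseudocount, fold threshold and test. The length used for RPKM was that listed in the table.

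The 39 genes, the lists, the tests and the alternatives were chosen with earlier results of these data known. Every one of the 39 genes is named. From each list, the 3 genes with the most reads and those with the highest and lowest difference, among genes with at least 100 reads in 1 library, are named. Exons of 9 of the 39 genes overlap those of another gene. A gene of the lists and a promoter window are not reported here.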

Additional observations from a re-analysis of the deposited data

How the results depend on the processing

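With 1 library a group, leaving out a replicate, edgeR's quasi-likelihood test and DESeq2 could not be run. No paired analysis was possible because ctrl and M2 share only 1 number. The reading of protein motifs was not run. All 39 genes kept their call under RLE and upper quartile factors, both filters on low counts, both pseudocounts and edgeR's exactTest with an assumed biological coefficient of variation (BCV) of 0.1, and no difference changed sign. The lowest median of the 39 genes over the alternatives was 0.83. The highest median, 1.01, was not of all 39 genes, but only of those with at least 100 reads in both libraries. Total reads, with or without mitochondrial genes, moved the median of all genes to -0.06 or -0.07, took Incenp to 0.95 or 0.94 and Spag5 to 0.96 or 0.95, and left 2 further kinetochore genes called. Removing the length trend took Incenp to 0.99.

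A minimum of 1 CPM in both libraries left 806 genes higher and 579 lower, and 0 cohesin genes. At 1.5-fold, 2462 of the 19233 genes tested were higher and 2143 lower. Of the 39 genes, 7 that were not called at 2-fold were then called higher. The numbers higher were then 5 in the inner centromere, 7 in the outer kinetochore, 10 among further kinetochore genes, 5 for cohesin, 13 for spindle assembly, 10 for replication, 3 for centrioles and 2 for the MuvB and DREAM regulators, with 1 of the latter lower. At 4-fold, 616 genes were higher and 494 lower, with 0 in the 39 genes and in every list. With a BCV of 0.2, 964 genes were higher and 691 lower. It left 12 of the 39 genes, ending the calls of Cenpi, Cenpa, Sgol1, Cdca8, Plk1, Spag5 and Incenp, so that 0 remained in the inner centromere and 4 in the spindle group. It left 2 further kinetochore genes, 5 of spindle assembly and 0 of replication. With a BCV of 0.4, 175 genes were higher and 130 lower, with 0 in the 39 genes and in every list. The BCV of these cultures cannot be estimated from 1 library a group.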

Other observations

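Besides Sgol2a, 8 of the 39 genes share exonic bases with another gene. Cenpu shares 1069 bases (26.7% of its length) with Primpol, which had 262 and 239 reads. Plk1 shares 156 bases (7.09%) with Gm44985 (21 and 56 reads, log2 difference 1.30), and Mis12 shares 231 bases (7.69%) with Derl2 (1778 and 1650 reads). Nusap1 shares 172 bases (4.24%) with Oip5 (64 and 108 reads), and the remaining 4 genes, Cdca8, Cenpq, Mad1l1 and Cenpt, share under 5% of their length.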
